A study of Mus musculus with 5 samples.

Results

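The peptide hormone genes of the islet are the subject here: the insulin genes Ins1 and Ins2, the amylin gene Iapp, the glucagon gene Gcg, the somatostatin gene Sst, the pancreatic polypeptide gene Ppy, the peptide YY gene Pyy, the ghrelin gene Ghrl, the urocortin 3 gene Ucn3 and the neuropeptide Y gene Npy. They were chosen by name and are 10 of the 23951 genes in the authors' table. Gene expression was measured by RNA-seq in beta cells of transgenic mice, sorted by fluorescence from dissociated islets. The p16 group (3 samples) came from Ins-rtTA/tet-GFP/tet-p16ink4a mice, whose beta cells expressed GFP together with p16INK4a, an inhibitor of the cyclin D kinases. The GFP group (2 samples) came from Ins-rtTA/tet-GFP mice, whose beta cells expressed GFP alone. Both groups carried the Ins-rtTA transactivator and received tetracycline for 10 days, so GFP was induced in both. The labels name Ins-rtTA as the driver, and give neither the age, the sex nor the strain of the mice. The deposited values are FPKM, read fragments scaled to transcript length and to library size, with 1 value per group and gene. The spread between samples and the depth of each library are therefore unknown, and no SD is given. Whether the group values differ was read from the q-values of the authors' deposited table, where a gene is called at a q below 0.05, and every q given here is from that table. The labels do not say that each sample was a separate mouse, and the table does not say which samples enter a group value. Cdkn2a, the gene of p16INK4a, stood at 34.6 FPKM in p16 and 0.657 FPKM in GFP (q = 0.00245 in that table), so the group labels fit the induced gene.

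The islet hormones come from several endocrine cell types. Beta cells make insulin and co-secrete amylin, and in mature mouse beta cells urocortin 3 is released with insulin and stimulates somatostatin secretion from neighbouring delta cells. Alpha cells make glucagon, delta cells somatostatin, PP cells pancreatic polypeptide and epsilon cells ghrelin. Peptide YY, neuropeptide Y and pancreatic polypeptide form 1 family of related peptides, and the Ppy and Pyy genes lie side by side on mouse chromosome 11. Somatostatin restrains both insulin and glucagon release within the islet.

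The DNA just before the transcription start is shown for the 3 hormone genes that rose with p16 and for the glucagon and urocortin 3 genes, which did not pass the test. Each is the 250 bases before the first start listed for the gene in RefSeq, in the GRCm38.p6 build, written 5′ to 3′ on the strand of the gene. Capitals mark matches, on either strand, to the cAMP response element TGACGTCA, the homeodomain core TAATTA, the MARE core TGCTGAC or the TATA box TATAAA.
Sst (chr16:23890845-23891094, minus strand): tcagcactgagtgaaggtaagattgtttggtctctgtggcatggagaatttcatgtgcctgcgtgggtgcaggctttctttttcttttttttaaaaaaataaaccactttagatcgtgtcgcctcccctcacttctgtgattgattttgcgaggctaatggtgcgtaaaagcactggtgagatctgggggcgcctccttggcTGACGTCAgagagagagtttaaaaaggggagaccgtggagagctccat
Ppy (chr11:102101320-102101569, minus strand): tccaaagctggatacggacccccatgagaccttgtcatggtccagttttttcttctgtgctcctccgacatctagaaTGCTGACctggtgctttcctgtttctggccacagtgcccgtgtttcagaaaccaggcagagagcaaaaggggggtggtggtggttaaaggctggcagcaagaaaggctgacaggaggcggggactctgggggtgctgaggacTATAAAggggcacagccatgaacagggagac
Pyy (chr11:102107833-102108082, minus strand): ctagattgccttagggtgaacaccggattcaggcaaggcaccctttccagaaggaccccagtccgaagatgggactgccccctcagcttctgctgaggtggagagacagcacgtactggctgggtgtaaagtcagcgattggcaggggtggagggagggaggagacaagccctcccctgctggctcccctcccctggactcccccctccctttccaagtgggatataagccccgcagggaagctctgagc
Gcg (chr2:62483654-62483903, minus strand): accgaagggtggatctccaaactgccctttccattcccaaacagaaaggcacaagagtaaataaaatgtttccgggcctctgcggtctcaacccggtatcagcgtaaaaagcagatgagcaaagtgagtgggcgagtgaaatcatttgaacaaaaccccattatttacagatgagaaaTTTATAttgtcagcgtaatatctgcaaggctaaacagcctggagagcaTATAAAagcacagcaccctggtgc
Ucn3 (chr13:3945350-3945599, minus strand): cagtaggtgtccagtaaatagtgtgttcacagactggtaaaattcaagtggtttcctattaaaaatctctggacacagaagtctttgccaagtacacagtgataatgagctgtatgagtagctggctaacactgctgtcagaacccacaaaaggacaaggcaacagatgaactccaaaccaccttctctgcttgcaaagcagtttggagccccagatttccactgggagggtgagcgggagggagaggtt
Of the 10 hormone genes, 9 have an entry in the RefSeq promoter table; Ins2 has none. The cAMP response element, a known control element of the somatostatin gene, was found at base -48 of the Sst sequence and in no other of the 9, against 1.62% of 27025 genes with a promoter in the table. The Ppy sequence held the MARE core, which 3.72% of promoters hold, and a TATA box. The Gcg sequence held the TATA box letters at 2 places, and 13.0% of promoters hold them. The Pyy and Ucn3 sequences held none of the 4, and TAATTA, present in 4.90% of promoters, was in none of the 9. The E-box CANNTG, present in 66.0% of promoters and not marked, was in 7 of the 9, all but Ppy and Npy. No motif searched was present in all 3 genes that rose.

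Of the 10 hormone genes, 3 rose with p16 and none fell, by the authors' deposited table. Somatostatin, pancreatic polypeptide and peptide YY transcripts, typical of delta and PP cells, were about doubled in the p16 group. Glucagon, urocortin 3 and neuropeptide Y did not pass, ghrelin was too low to be tested, and the 3 most typical beta cell products, Ins1, Ins2 and Iapp, carry no estimate. Among all 13264 tested genes, 4.32% were called higher and 1.1% lower, against 3 and 0 of the 6 tested hormone genes. Ucn3 and Npy had the lower value in p16, with unadjusted p-values of 0.01745 and 0.01145 in the authors' Cuffdiff test, and did not pass after adjustment. The median log2 ratio of FPKM, p16 over GFP, was 0.71 over the 6 tested hormone genes and -0.02 over all tested genes above 0 in both groups. In bulk samples, a different share of cells of a type and a different amount of RNA per cell cannot be told apart. Transcripts of the sex chromosomes, picked out after their values were seen, also moved with the group. Xist, the noncoding RNA of the inactive X chromosome, rose to 9.56 FPKM in p16, against 3.50 FPKM in GFP (q = 0.00441 in the authors' deposited table). The Y-linked gene Eif2s3y fell to 8.87 FPKM in p16, against 23.3 FPKM in GFP (q = 0.0343). The Y-linked genes Ddx3y, Uty and Kdm5d also had lower values in p16 and did not pass (log2 ratios of -1.09, -0.996 and -1.05). The part of the sex of the mice in the hormone results was not tested.

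**Figure D1:**
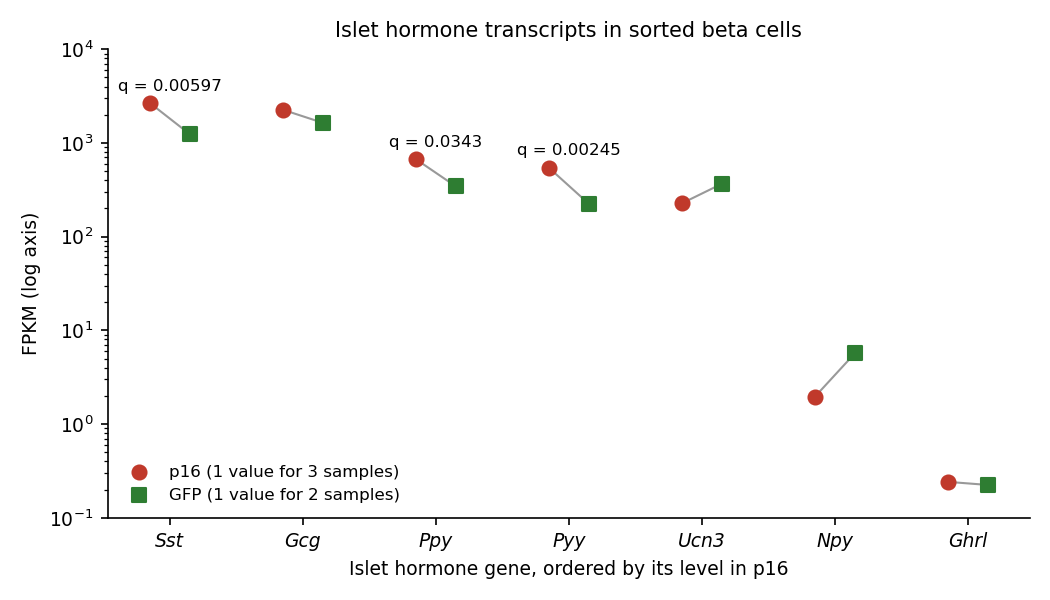
FPKM (vertical log axis) of the 7 islet hormone genes with a value (horizontal axis), as the authors' single value per group, p16 as circles and GFP as squares; there are no error bars because no values per sample are given. Sst, Ppy and Pyy, marked with the authors' q-value, stand higher in p16, and Ucn3 and Npy have the lower value in p16 without passing.

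The insulin genes could not be compared. Ins1 (mm9, chromosome 19, 52338813 to 52339948) and Ins2 (chromosome 7, 149864561 to 149865613), which encode the 2 mouse proinsulins, are listed at 0 in both p16 and GFP with the status HIDATA. Cuffdiff gives that status to a locus with too many fragments to quantify, so these zeros are not measurements. Iapp, the amylin gene, has the same status in both groups. The table gives Iapp the locus 142182748 to 142271501 on chromosome 6, which it shares with the organic anion transporter gene Slco1a5, also without an estimate. The table gives this status to 6 genes, among them Chga, the chromogranin A gene. Chga is listed at 0 in p16 and at 8261 FPKM in GFP under that status, and the pair of values is no comparison. The fragments of Ins1, Ins2 and Iapp, and their share of each library, are thus unknown for both groups.

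Urocortin 3, the remaining beta cell hormone, had the lower value with p16 and did not pass. Ucn3 (chromosome 13, 3939934 to 3944595) stood at 226.8 FPKM in p16 and 366.4 FPKM in GFP, a log2 ratio of -0.69 (q = 0.163 in the authors' deposited table). It ranked 275 by FPKM in p16 and 169 in GFP among the genes without the HIDATA status. Other markers of beta cells went both ways. Of 15 tested beta cell markers other than hormones, the authors' deposited table called 1 higher and 2 lower, with a median log2 ratio of 0.09. Trpm5, a cation channel, fell to 17.7 FPKM in p16, against 42.6 FPKM in GFP, and the glucose transporter gene Slc2a2 fell to 205.2 FPKM in p16, against 401.7 FPKM in GFP (q = 0.00245 and 0.0242). The most abundant of these markers, G6pc2, stood at 2327 FPKM in p16 and 3012 FPKM in GFP, so the sorted cells of both groups carried beta cell transcripts at high levels. Summed over the 15 beta cell markers, FPKM was 5206 in p16 and 6700 in GFP.

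Glucagon, the product of alpha cells, was abundant in both groups and did not differ by the authors' test. Gcg (chromosome 2, 62312587 to 62321710) stood at 2263 FPKM in p16 and 1642 FPKM in GFP, a log2 ratio of 0.46 (q = 0.497 in the authors' deposited table). Of 12 tested alpha cell markers other than Gcg, the authors' deposited table called 1 higher and none lower, with a median log2 ratio of 0.56. The summed FPKM of the 14 alpha markers was 1536 in p16 and 1706 in GFP, most of it from Tmem27 and Ttr, which beta cells also express.

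Somatostatin rose most in absolute terms. Sst (chromosome 16, 23889667 to 23890930) reached 2678 FPKM in p16, against 1244 FPKM in GFP, or 2.15-fold (log2 ratio 1.11, q = 0.00597 in the authors' deposited table). It was the fifth most abundant gene with an estimate in p16 and stood at rank 21 in GFP. The delta cell markers other than Sst were low, apart from Rbp4. The retinol-binding protein gene Rbp4 rose to 101.6 FPKM in p16, against 50.5 FPKM in GFP (q = 0.00752 in the authors' deposited table), and was the 1 of 6 tested delta markers that was called. Hhex, the transcription factor that defines delta cells in the mouse, stood at 1.83 FPKM in p16 and 1.70 FPKM in GFP (q = 0.945). The other tested delta markers, Nefm, Ghsr, Ptprz1 and Spock3, were at or below 1.57 FPKM in both groups and did not pass. The summed FPKM of the 8 delta markers was 107.3 in p16 and 55.1 in GFP, nearly all of it Rbp4. The median log2 ratio of the 6 tested was 0.57, or 0.27 with quantile normalization. The part of a different share of delta cells in the Sst result was not tested.

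Pancreatic polypeptide and peptide YY rose together. Ppy (chromosome 11, 101961245 to 101962614) reached 672.0 FPKM in p16, against 344.8 FPKM in GFP, or 1.95-fold (log2 ratio 0.96, q = 0.0343 in the authors' deposited table). Pyy (chromosome 11, 101967991 to 101969090) reached 544.7 FPKM in p16, against 224.7 FPKM in GFP, or 2.42-fold (log2 ratio 1.28, q = 0.00245). Its p-value in the authors' Cuffdiff test, 5e-05, was the smallest the table gives, a value that 271 tested genes share. The 2 loci lie 5376 bases apart in mm9. Of the 5 other genes within 60 kb of either, 3 were tested and none was called. Mpp2, a membrane scaffold gene beside Ppy, stood at 6.13 FPKM in p16 and 3.40 FPKM in GFP (q = 0.0723), Tmem101 at 11.1 and 10.2 FPKM, and Lsm12 at 20.6 and 22.1 FPKM. Of the PP cell markers other than these hormones, 5 were tested, and the authors' deposited table called 1 higher and none lower. It was Spp1, the osteopontin gene, which is also a duct marker, at 15.1 FPKM in p16 and 3.85 FPKM in GFP (q = 0.00245). The median log2 ratio of the PP markers was 0.01, or -0.005 with quantile normalization, and their summed FPKM was 54.5 in p16 and 43.2 in GFP. Whether a different share of PP cells contributed to the Ppy and Pyy values was not tested.

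The remaining pair of hormones was scarce. Ghrl (chromosome 6, 113666113 to 113669905), the ghrelin gene of epsilon cells, was listed at 0.242 FPKM in p16 and 0.224 FPKM in GFP and was not tested. Mboat4, the enzyme that acylates ghrelin, stood at 0.412 FPKM in p16 and 0.280 FPKM in GFP (q = 0.723). Npy (chromosome 6, 49772728 to 49779504), a peptide of sympathetic nerves and immature beta cells, stood at 1.96 FPKM in p16 and 5.69 FPKM in GFP and did not pass (log2 ratio -1.54, q = 0.127 in the authors' deposited table). With a pseudocount of 5 FPKM its log2 ratio was -0.62. Its value was lower in p16 while those of its relatives Ppy and Pyy were higher, and that contrast was not tested. Of the Schwann cell markers, which would mark nerve tissue, 2 were tested and none was called, and the 7 in the list summed to 9.38 FPKM in p16 and 8.58 FPKM in GFP.

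The order of the hormones by level differed between the groups. In p16 it ran Sst, Gcg, Ppy, Pyy, Ucn3, Npy and Ghrl. In GFP it ran Gcg, Sst, Ucn3, Ppy, Pyy, Npy and Ghrl, so that Sst and Gcg changed places and Ucn3 stood ahead of Ppy and Pyy. FPKM is per length, and levels of different genes are set side by side here only as a description. Effects of transcript length and GC content on these levels were not tested. With no spread between samples it cannot be said which neighbours differ. Sst stood at 1.18 times Gcg in p16 and 0.758 times Gcg in GFP. Ucn3 stood at 0.0847 times Sst in p16 and 0.294 times Sst in GFP. Ppy kept close to Sst, at 0.251 times its FPKM in p16 and 0.277 times in GFP. The 7 hormones with a value summed to 6387 FPKM in p16 and 3829 FPKM in GFP, or 1.67-fold. Of that sum, Sst made up 41.9% in p16 and 32.5% in GFP, Gcg 35.4% and 42.9%, Ppy 10.5% and 9.01%, Pyy 8.53% and 5.87%, and Ucn3 3.55% and 9.57%. Without Sst, the sum in p16 was 1.44 times that in GFP.

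Few genes of such abundance rose. Of 755 tested genes with a mean of at least 100 FPKM over the group values, the authors' deposited table called 1.59% higher and 2.91% lower. Of the 12 called higher, Sst, Ppy and Pyy were 3. The other 9, named after their values were seen, were the noncoding RNA gene Meg3, the microRNA gene Mir6236, the tight junction gene Cldn4, the leucyl-tRNA synthetase gene Lars2, the ribosomal RNA precursor Rn45s, the creatine kinase gene Ckb, the glutathione peroxidase gene Gpx3, the desaturase gene Scd2 and the clusterin gene Clu. Of these, 2 had the highest FPKM in p16: Mir6236 at 5236 FPKM, against 1480 FPKM in GFP (q = 0.00245), and Rn45s at 3612 FPKM, against 1412 FPKM in GFP (q = 0.00899). The ribosomal RNA content of the libraries thus moved with the group, and its part in the hormone results was not tested. The median log2 ratio of genes with a mean of at least 100 FPKM was -0.15. Relative to that median, the log2 ratios were 1.26 for Sst, 1.12 for Ppy, 1.43 for Pyy, 0.62 for Gcg and -0.54 for Ucn3.

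**Figure D2:**
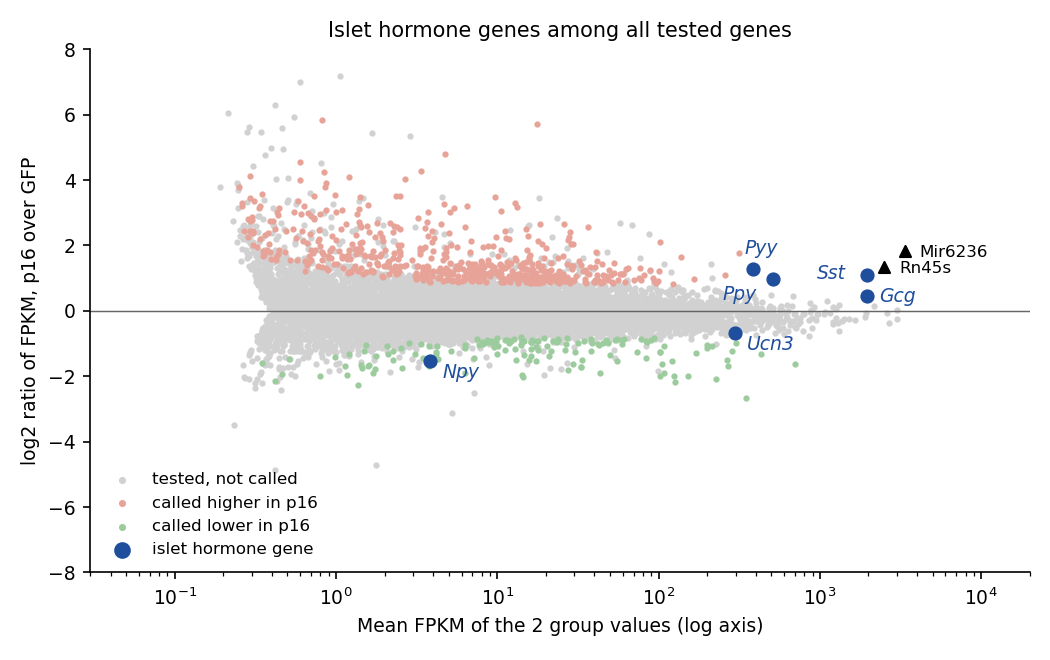
Log2 ratio of FPKM, p16 over GFP (vertical axis), against the mean FPKM of the group values (horizontal log axis) for the 13174 tested genes above 0 in both groups, each a point coloured by the authors' call, with 6 islet hormone genes in blue and Rn45s and Mir6236 as black triangles. Sst, Ppy and Pyy lie above nearly all genes of like abundance, Gcg lies nearer to 0, and Ucn3 and Npy lie below 0.

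The hormone genes that rose also shared a high GC content. The longest GENCODE M21 transcript of Sst, Ppy and Pyy had a GC content of 56.0%, 57.0% and 57.3%, which placed all 3 in the highest of 5 equal groups of tested genes by GC content. Gcg, at 44.8%, was in the second lowest group, Ucn3, at 51.2%, in the middle one and Npy, at 53.7%, in the second highest. In the highest GC group 8.33% of tested genes were called higher, against 1.67% in the lowest. Among genes that were in the highest GC group and also had a mean of at least 100 FPKM, 6.25% of 128 were called higher, or 8 genes, the 3 hormones among them. The part of GC content in the hormone results was not tested.

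**Figure D3:**
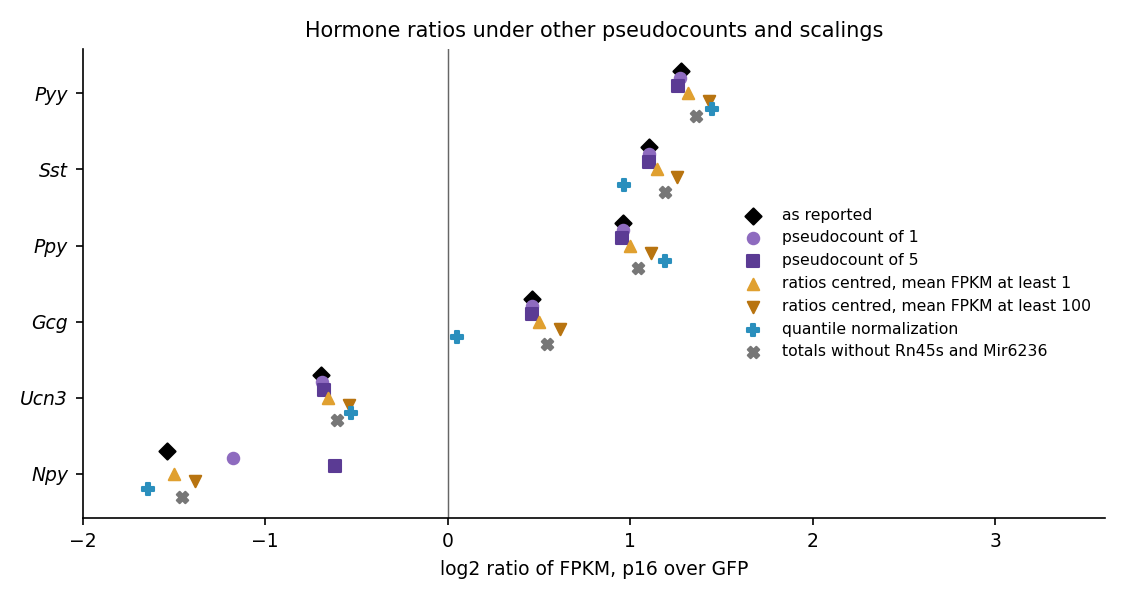
Log2 ratio of FPKM, p16 over GFP (horizontal axis), of the 6 tested hormone genes (vertical axis) as reported and under 6 other pseudocounts or scalings, each with its own symbol. Pyy, Sst and Ppy stay between 0.95 and 1.45, Gcg comes down to 0.05 with quantile normalization, and Npy comes up to -0.62 with a pseudocount of 5.

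Genes listed as markers of cells outside the endocrine islet were mostly near 0, apart from several in the duct list. Of 8 endothelial markers 7 were below 1 FPKM in both groups, and their summed FPKM was 3.64 in p16 and 3.10 in GFP. None of 11 tested acinar markers was called, with Ctrb1, a chymotrypsinogen gene, at 6.20 FPKM in p16 and 6.58 FPKM in GFP, and a summed FPKM of 21.9 in p16 and 20.5 in GFP. The immune marker Cd68 rose to 1.95 FPKM in p16, against 0.229 FPKM in GFP (q = 0.0498), while the T cell gene Cd3e was listed at 0 in both, and the 9 immune markers summed to 2.39 FPKM in p16 and 0.567 FPKM in GFP. The fibroblast genes Col1a2 and Dcn rose to 1.60 and 2.29 FPKM in p16, against 0.0837 and 0.133 FPKM in GFP (q = 0.00245 and 0.00752), and the 10 stellate and fibroblast markers summed to 4.97 FPKM in p16 and 0.652 FPKM in GFP. Of 9 tested duct markers 4 were higher and 1 was lower, with a median log2 ratio of 0.83. Cldn4 rose to 486.5 FPKM in p16, against 143.3 FPKM in GFP, and Sox9, a duct transcription factor, to 0.492 FPKM in p16, against 0.122 FPKM in GFP (q = 0.00245 and 0.0322 in the authors' deposited table). The keratin gene Krt19 fell to 1.79 FPKM in p16, against 5.75 FPKM in GFP (q = 0.0105). Summed over the 10 duct markers, FPKM was 1030 in p16 and 528.4 in GFP, most of it from Cldn4, Epcam, Clu and Krt7. Epcam, at 203.2 FPKM in p16 and 144.6 FPKM in GFP, and Krt7, at 151.5 and 134.0 FPKM, did not pass. Sox9, Cftr and Muc1 were below 1 FPKM in both groups. Whether Cldn4, Epcam, Clu and Krt7 transcripts came from duct cells or from the endocrine cells themselves was not tested. The part of these cell types in the hormone results was not tested.

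Genes that process and store the hormones mostly did not pass the test. Of 20 tested genes of prohormone processing and the secretory granule, the authors' deposited table called 1 higher and none lower, with a median log2 ratio of 0.08. That gene was Vgf, the precursor of several neuroendocrine peptides, which rose to 63.4 FPKM in p16, against 18.2 FPKM in GFP, or 3.49-fold (q = 0.00245). The convertase genes Pcsk1 and Pcsk2, which cut proinsulin and proglucagon, stood at 292.3 and 766.6 FPKM in p16 and 378.7 and 824.6 FPKM in GFP (q = 0.540 and 0.930). Cpe, the carboxypeptidase that trims the cut ends, stood at 3034 FPKM in p16 and 2959 FPKM in GFP.

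Among receptors of the islet hormones, none of 12 tested genes passed in the authors' deposited table, and their median log2 ratio was 0.34. The 2 most abundant were Glp1r, the receptor of the glucagon-like peptide made from Gcg, at 136.5 FPKM in p16 and 150.7 FPKM in GFP, and the somatostatin receptor gene Sstr3, at 52.6 FPKM in p16 and 39.9 FPKM in GFP. Nearest to the threshold, and named after its value was seen, was the glucagon receptor gene Gcgr, at 27.0 FPKM in p16 and 14.7 FPKM in GFP (q = 0.0559). Crhr2, the receptor of urocortin 3, was listed at 0.402 FPKM in p16 and 0.196 FPKM in GFP and was not tested. Npy4r, the receptor of pancreatic polypeptide, was listed at 0 in both groups.

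Transcription factors known to act on islet hormone genes moved in either direction: of 21 tested, the authors' deposited table called 3 higher and 1 lower, with a median log2 ratio of 0.34. Glis3, a zinc finger activator of insulin transcription, rose to 17.4 FPKM in p16, against 9.12 FPKM in GFP (q = 0.0313). Isl1, a LIM homeodomain factor of all islet endocrine cells that is known to bind the somatostatin, glucagon and insulin genes, fell to 41.7 FPKM in p16, against 76.8 FPKM in GFP (q = 0.0257). Pdx1, an activator of both the insulin and the somatostatin gene, stood at 119.6 FPKM in p16 and 67.6 FPKM in GFP and did not pass (q = 0.0996).

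Peptide hormone genes from outside the usual islet set were mostly silent. Of the 69 genes in the list, 68 were found in the data, and 53 were below 1 FPKM in both groups. None of 24 tested was called in either direction, and their median log2 ratio was 0.68. The most abundant were the nucleobindin genes Nucb2, the source of the peptide nesfatin-1, at 192.1 FPKM in p16 and 186.1 FPKM in GFP, and Nucb1, at 136.7 FPKM in p16 and 94.7 FPKM in GFP (q = 0.966 and 0.336 in the authors' deposited table).

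**Figure D4:**
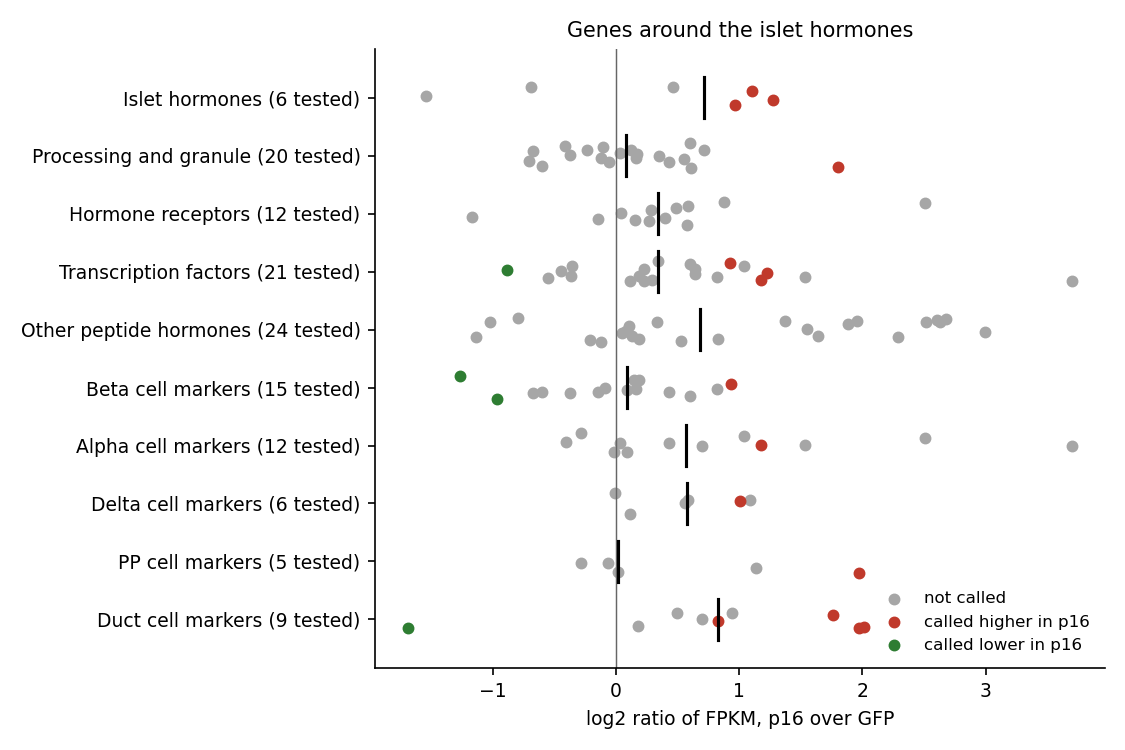
Log2 ratio of FPKM, p16 over GFP (horizontal axis), of each tested gene (points) in the islet hormone set and 9 lists around it (vertical axis), coloured by the authors' call, with the list's median as a black bar. The hormone set has 3 genes called higher of 6 tested, against 4 of 9 in the duct list, 1 of 20 in the processing and granule list and none among hormone receptors or other peptide hormones.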

How the data were processed

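Total RNA from sorted GFP-positive beta cells was sequenced, with 3 p16 samples and 2 GFP samples according to the labels. TopHat2, Cuffnorm and Cuffdiff were run by the authors with mm9, per the submitters' processing notes. Which versions, gene annotation, library scaling and strand setting they used is not given in the sources used here. Their deposited table, made by the authors with Cuffdiff, holds 1 FPKM value per group and gene, and for every gene the deposited p-value and q-value of Cuffdiff. Since FPKM is no count, no count model was run, and depth per sample is unknown. Of 23951 genes, 13264 had been tested, 10679 not tested, 6 had too many fragments and for 2 the test had failed. Benjamini-Hochberg adjustment of the deposited p-values of tested genes gave the authors' q-values to within 5.23e-07.

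The hormone genes and the lists around them were chosen with earlier results of these data known. A fit with limma over samples was planned for the case of values per sample. Group values allow none, so calls are those of the authors at a q below 0.05, as planned for that case, and lists are described by counts and medians. Likeness of pattern between genes was not computed, since it needs values per sample. Ratios were computed from the FPKM values without a pseudocount, and genes with the status HIDATA were left out of ratios, sums and ranks. Named genes were all hormone genes and, of each list, up to 4 called members or the 2 most abundant. Some genes that background knowledge ties to a hormone (Hhex, Mboat4, Crhr2, Npy4r, Pdx1, Pcsk1, Pcsk2, Cpe), the most abundant beta cell marker and the neighbours of Ppy and Pyy were named beyond that rule, after their values were seen. Some called or marker genes of the lists are not reported here. Starts in the table were taken to count from 0, and 1 was added: of 887 microRNA genes compared, the RefSeq hairpin length equalled the end minus the start in 272 and 1 base more in 1, and the others matched neither. GC content came from GENCODE M21 transcripts, matched for 95.1% of tested genes. Motifs were searched in the 250 bases before the first RefSeq start of each gene. Alternatives were pseudocounts of 1 and 5, other scalings, filters at a mean of 1 and 5 FPKM, and q thresholds of 0.01 and 0.1. Software was Python 3.11.15, pandas 2.3.3, numpy 2.4.6, matplotlib 3.10.9 and scipy 1.17.1. The computing of log2 ratios, the Benjamini-Hochberg adjustment and the quantile normalization were tested on simulated data, which does not test the authors' calls.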

Additional observations from a re-analysis of the deposited data

How the results depend on the processing

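Values per sample were not used here, so no replicate could be left out. No paired analysis was possible because the table holds 1 value per group. With the authors' q below 0.01, 2 of the 3 hormone genes called higher passed, Ppy being the exception (q = 0.0343). All 3 passed at a q below 0.1, and when p-values were readjusted over the genes whose mean reached 1 or 5 FPKM (q = 0.0355 and 0.0379 for Ppy); Npy, with a mean below 5 FPKM, was not in the set with a mean of 5. No hormone gene was called lower under any of these 4 settings. Of 36 ratios of the 6 tested genes under other pseudocounts and scalings, 35 kept their direction and stayed within 1.5-fold. The exception in size was Npy, at -0.62 with a pseudocount of 5 against -1.54 without one, and it kept its direction. By construction, a pseudocount shrinks ratios of low values and hardly moves those of abundant genes. The scalings other than quantile normalization shift every ratio by the same small amount, so most of the 36 could hardly change. With quantile normalization the log2 ratio of Gcg came down from 0.46 to 0.05, which is within 1.5-fold and is counted as kept. The sum over the hormones with a value leaves out Ins1, Ins2 and Iapp, so it is no measure of total hormone RNA. That sum was 1.67 times as high in p16 as in GFP as reported. It was 1.74 and 1.77 times as high with other totals, and 1.44 times with Sst left out. The scaling without Rn45s and Mir6236 was chosen after seeing the data. Unknown depth limits what can be read from genes near 0, such as Ghrl and Hhex.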
